A study of Caenorhabditis elegans with 16 samples.

Results

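The electron transport chain of mitochondria is built from proteins of the nucleus and of the mitochondrial genome, and 37 nuclear genes of it in Caenorhabditis elegans were chosen by name: 14 of complex I, 5 of complex II, 7 of complex III, 2 cytochrome c genes, 7 of complex IV and 2 that help to assemble complex IV. Rows with these gene names were taken from the tables, and 35 of the 37 were present among 46904 genes. The other 2, nduf-9 and nduf-11, stand in the files under the sequence names Y53G8AL.2 and B0491.5. They are counted in no total of the members below, and their values are given once. Whole worms of the wild-type strain N2 were fed HT115, a strain of Escherichia coli used to deliver double-stranded RNA, and RNA was measured in 16 libraries. In 7 libraries the bacteria made double-stranded RNA against atp-2, and in 9 control libraries they carried an empty vector. At 0 hr and at 20 hr there were 2 libraries of atp-2 RNAi worms (replicates 2 and 3) and 3 of control worms. Single libraries of both groups were made at 24 hr and 36 hr, and a single atp-2 RNAi library of 54 hr was paired with a single control library of 48 hr. The labels give neither the age of the worms nor the event from which the hours were counted. They do not tell whether the replicates were cultured separately, so the spread behind the p-values is that between these libraries and may be technical.

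In the chain, complex I takes electrons from NADH and complex II takes them from succinate, and both hand them to ubiquinone. Complex III passes them from ubiquinone to cytochrome c, and complex IV passes them on to oxygen. Complexes I, III and IV pump protons, and the ATP synthase, whose beta subunit atp-2 encodes, uses the resulting gradient. In the worm the chain has been studied through long-lived mutants of isp-1 and nuo-6 and through mutants of gas-1 and mev-1, which are sensitive to oxidative stress. Most genes of the X chromosome are kept silent in the germline of the worm.

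Levels are TPM, the share of a gene among the transcripts of its library after correction for transcript length, scaled to the same total in each library. No counts are given with them, so depth is unknown. The number of genes above 1 TPM was 10619 to 13565 per library, and on the log2(TPM + 1) scale the lowest correlation across genes between replicates of any group was 0.9894. Changes are given on that scale as atp-2 RNAi minus control, with a standard error (SE) and an adjusted p from limma, a linear model fitted across all genes, and a gene passed at an adjusted p under 0.05. At 0 hr, 43.7% of 14094 tested genes were higher and 39.6% lower after atp-2 RNAi, so that 83.3% passed, with a median change of 0.13. At 20 hr, 47.7% of 12916 genes were higher and 40.7% lower, so that 88.3% passed, with a median of 0.31. Setting every library to the same median moved these medians to -0.02 and 0.19. They also depend on the filter, and over genes with a mean of 5 TPM or more they were -0.06 and -0.34. With that filter 4239 of 10535 genes were higher and 4519 lower at 0 hr, and 3925 of 9874 higher and 4816 lower at 20 hr.

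The target, atp-2 (chromosome III, 5228417 to 5230536, plus strand, WBcel235), checked the labels. It stood at 110.2 and 136 TPM in atp-2 RNAi worms at 0 hr, against 1814, 2074 and 2097 TPM in controls. By 20 hr its level was 197 and 172 TPM in atp-2 RNAi worms, against 1389, 1910.4 and 1872 TPM in controls. Each atp-2 RNAi library lay below each control library at both times. Among the single libraries, that of atp-2 RNAi worms at 24 hr held 1043 TPM and its control 2225 TPM, that at 36 hr held 736 TPM and its control 2578 TPM, and that at 54 hr held 431 TPM and the 48 hr control 2607 TPM.

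Of the 35 chain genes, 11 were higher and 4 lower after atp-2 RNAi at 0 hr (31.4% and 11.4%), and the other 20 did not pass the test. Both shares lie below those of all tested genes, 43.7% and 39.6%. The median change of the members was 0.21, against 0.13 over all genes and -0.06 over genes with a mean of 5 TPM or more. At 20 hr 34 members were tested, of which 25 were higher and 4 lower (73.5% and 11.8%, against 47.7% and 40.7% of all genes). Their median change was 0.66, against 0.31 over all genes and -0.34 over genes with a mean of 5 TPM or more. The members that were lower at 0 hr were nduf-2.2, sdha-2, ucr-2.3 and cyc-2.2, and each is a paralog of another member. Those lower at 20 hr were nduf-2.2, sdha-2, ucr-2.3 and the assembly gene cox-11. Without overlap between the groups, 19 members stood above the controls and 5 below them in every library at 0 hr, where 47.1% and 42.7% of all tested genes did so. At 20 hr these counts were 27 and 4, where 49.8% and 42.5% of all tested genes did so.

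**Figure D1:**
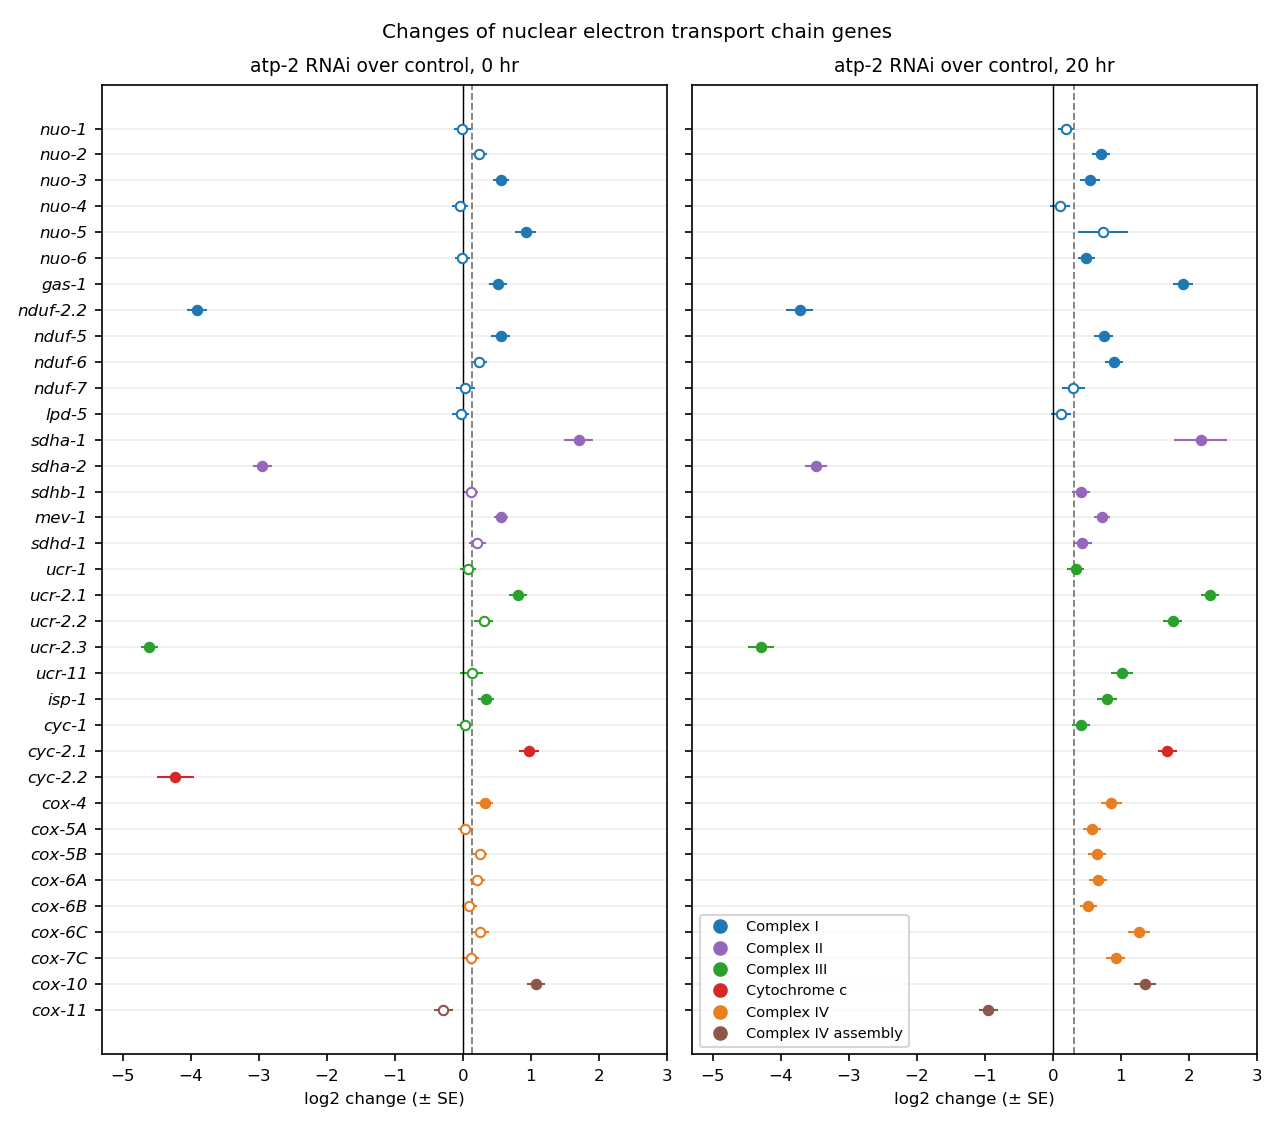
Log2 change of each member in atp-2 RNAi worms over control at 0 hr (left) and 20 hr (right), with its SE from limma. Filled points passed at an adjusted p under 0.05, open points did not, colours mark the complex, and the dashed line is the median of all tested genes. The points of nduf-2.2, sdha-2 and ucr-2.3 lie near -3 to -5 at both times, cyc-2.2 was tested at 0 hr only, and most others lie between 0 and 1.

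The largest increase and the largest decrease at each time lay in the paralog sets. In complex I the 49 kDa subunit, part of the arm that takes up ubiquinone, is encoded by gas-1 on the X chromosome (15586812 to 15590397, minus strand) and by nduf-2.2 on chromosome III (6465157 to 6467208, plus strand). At 0 hr nduf-2.2 had 6.64 and 7.45 TPM in atp-2 RNAi worms, against 130.0, 121 and 108 TPM in controls. At 20 hr it had 8.94 and 14.7 TPM in atp-2 RNAi worms, against 176, 159 and 157 TPM in controls. The groups were far apart at both times, with changes of -3.91 ± 0.14 and -3.72 ± 0.20 (SE, n = 2 and 3, adjusted p = 5.58e-07 and 2.32e-06 by limma). Its partner gas-1 went the other way. At 0 hr gas-1 had 236 and 248 TPM in atp-2 RNAi worms, against 148, 174 and 188 TPM in controls. Its 20 hr levels were 255 and 210.5 TPM in atp-2 RNAi worms, against 65.4, 61.1 and 55.9 TPM in controls. The atp-2 RNAi levels were close to each other at both times, while controls of 20 hr lay below controls of 0 hr, and the change was 0.52 ± 0.14 at 0 hr (adjusted p = 0.00787) and 1.91 ± 0.14 at 20 hr (adjusted p = 7.98e-06). Without replicate 3 of the atp-2 RNAi group the call of gas-1 at 0 hr was lost (adjusted p = 0.0546 by limma). In all, nduf-2.2 made up 2.83% ± 0.134 of the summed TPM of both genes in atp-2 RNAi worms and 41.5% ± 5.12 in controls at 0 hr (SD, n = 2 and 3). Its share at 20 hr was 4.96% ± 2.23 in atp-2 RNAi worms and 73.0% ± 0.702 in controls (SD, n = 2 and 3). The sum of both genes differed less, at 249.2 ± 8.77 TPM in atp-2 RNAi worms and 289.6 ± 10.3 TPM in controls at 0 hr, and at 244.4 ± 27.2 and 224.9 ± 14.8 TPM at 20 hr.

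In complex II the flavoprotein subunit, which oxidises succinate, is encoded by sdha-1 on the X chromosome (8542867 to 8546021, minus strand) and sdha-2 on chromosome I (10683270 to 10685664, minus strand). At 0 hr sdha-2 had 17.6 and 18.5 TPM in atp-2 RNAi worms, against 163, 148 and 129 TPM in controls. At 20 hr it had 16.6 and 22.5 TPM in atp-2 RNAi worms, against 244, 221 and 214 TPM in controls. No library of one group came near the other group, and the changes were -2.95 ± 0.14 at 0 hr and -3.48 ± 0.16 at 20 hr (SE, adjusted p = 1.79e-06 and 1.28e-06 by limma). For sdha-1 the order was reversed, with 176 and 185 TPM in atp-2 RNAi worms at 0 hr, against 43.9, 50.2 and 74.0 TPM in controls. At 20 hr sdha-1 had 179.7 and 167 TPM in atp-2 RNAi worms, against 20.03, 49.8 and 53.2 TPM in controls. Replicate 1 of the 20 hr controls was the lowest of its group, and the change of 2.17 ± 0.38 (adjusted p = 0.000951) became 1.73 without it (adjusted p = 9.47e-05). At 0 hr sdha-1 was the member with the largest increase, 1.70 ± 0.21 (adjusted p = 0.00016). The share of sdha-2 in the summed TPM of the pair was 9.09% ± 0.0212 in atp-2 RNAi worms and 72.3% ± 7.85 in controls at 0 hr, and 10.2% ± 2.45 and 84.7% ± 6.71 at 20 hr (SD, n = 2 and 3). The summed TPM of the pair stood at 198.6 ± 7.21 in atp-2 RNAi worms and 202.7 ± 4.52 in controls at 0 hr, and at 192.9 ± 4.88 and 267.4 ± 3.05 at 20 hr. The sums thus overlapped between groups at 0 hr and did not at 20 hr.

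In complex III the core protein 2 has 3 genes, of which ucr-2.1 (11968034 to 12021212, plus strand) and ucr-2.2 (15173904 to 15178145, plus strand) lie on the X chromosome and ucr-2.3 on chromosome III (879860 to 881506, plus strand). At 0 hr ucr-2.3 had 5.87 and 5.62 TPM in atp-2 RNAi worms, against 174, 165 and 152 TPM in controls. Its 20 hr levels were 8.82 and 13.7 TPM in atp-2 RNAi worms, against 252, 226 and 224 TPM in controls. This was the largest decrease of any member at both times, -4.61 ± 0.13 and -4.29 ± 0.19 (SE, adjusted p = 2.29e-07 and 1.13e-06 by limma). At 0 hr ucr-2.1 had 393 and 396 TPM in atp-2 RNAi worms, against 197, 228 and 253 TPM in controls. At 20 hr it had 444 and 367 TPM in atp-2 RNAi worms, against 74.7, 82.2 and 84.7 TPM in controls. It was higher at both times, by 0.81 ± 0.13 at 0 hr and by 2.31 ± 0.14 at 20 hr, the largest increase of any member at 20 hr (adjusted p = 0.000755 and 3.06e-06). At 0 hr ucr-2.2 had 169.9 and 192 TPM in atp-2 RNAi worms, against 128, 149.7 and 161 TPM in controls, which did not overlap but did not pass (0.31 ± 0.14, adjusted p = 0.0712, or 0.38 with adjusted p = 0.0283 without control replicate 3). Its 20 hr levels were 195 and 157 TPM in atp-2 RNAi worms, against 49.1, 50.5 and 53.8 TPM in controls (1.76 ± 0.14, adjusted p = 1.17e-05 by limma). Between the 3 genes, ucr-2.3 took 0.988% ± 0.0594 of the summed TPM in atp-2 RNAi worms and 30.7% ± 4.01 in controls at 0 hr, and 1.96% ± 0.841 and 64% ± 2.78 at 20 hr (SD, n = 2 and 3). Their sum was 581.1 ± 17.8 TPM in atp-2 RNAi worms and 535.6 ± 33.9 TPM in controls at 0 hr, a ratio of 1.08, and 592.9 ± 77.6 and 365.9 ± 8.82 TPM at 20 hr, a ratio of 1.62.

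Cytochrome c, the small protein that carries electrons between complexes III and IV, is encoded by cyc-2.1 on chromosome IV (4747901 to 4749113, minus strand) and cyc-2.2 on chromosome V (12611682 to 12612260, minus strand). At 0 hr cyc-2.1 had 769 and 970.2 TPM in atp-2 RNAi worms, against 387, 461 and 477 TPM in controls. At 20 hr it had 1036 and 880.3 TPM in atp-2 RNAi worms, against 327, 280.3 and 285 TPM in controls. It was 0.97 ± 0.15 higher at 0 hr and 1.68 ± 0.13 higher at 20 hr on the log2 scale (adjusted p = 0.000516 and 1.12e-05 by limma). Much less cyc-2.2 was present in any library. At 0 hr cyc-2.2 had 0.151 TPM in one atp-2 RNAi library and was listed at 0 in the other, against 13.8, 19.1 and 26.2 TPM in controls (adjusted p = 6.49e-06 by limma). Its 20 hr levels were 0.377 and 1.99 TPM in atp-2 RNAi worms, and in controls it was listed at 0 in 2 libraries and at 0.0895 TPM in the third, so it fell below the filter of a mean of 1 TPM and was not tested. The single control of 48 hr held 17.3 TPM, while both libraries of 24 hr and the atp-2 RNAi libraries of 36 hr and 54 hr were listed at 0. Outside the controls of 0 hr and 48 hr, no library held more than 1.99 TPM.

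For each of the shares of nduf-2.2, sdha-2 and ucr-2.3, at 0 hr and at 20 hr, all atp-2 RNAi libraries lay below all controls. The exact two-sided permutation p was 0.2, the smallest value that 2 against 3 libraries allow. Identical stretches of paralogs could split reads between them, and how the authors' counting treated such reads is not given in the sources used here. For ucr-2.1 the deposited span holds 16 other genes, while the Ensembl annotation starts the gene at 12018429, so reads of other genes may enter its value. The span of ucr-2.2 holds col-41 on the opposite strand, which averaged 1180 TPM in atp-2 RNAi worms and 0.0959 TPM in controls at 0 hr, and 867.1 and 0.0173 TPM at 20 hr. The exons of col-41 and ucr-2.2 share 0 bases in that annotation, and the strand setting of the counting is not given, so the part of col-41 reads in ucr-2.2 was not tested.

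**Figure D2:**
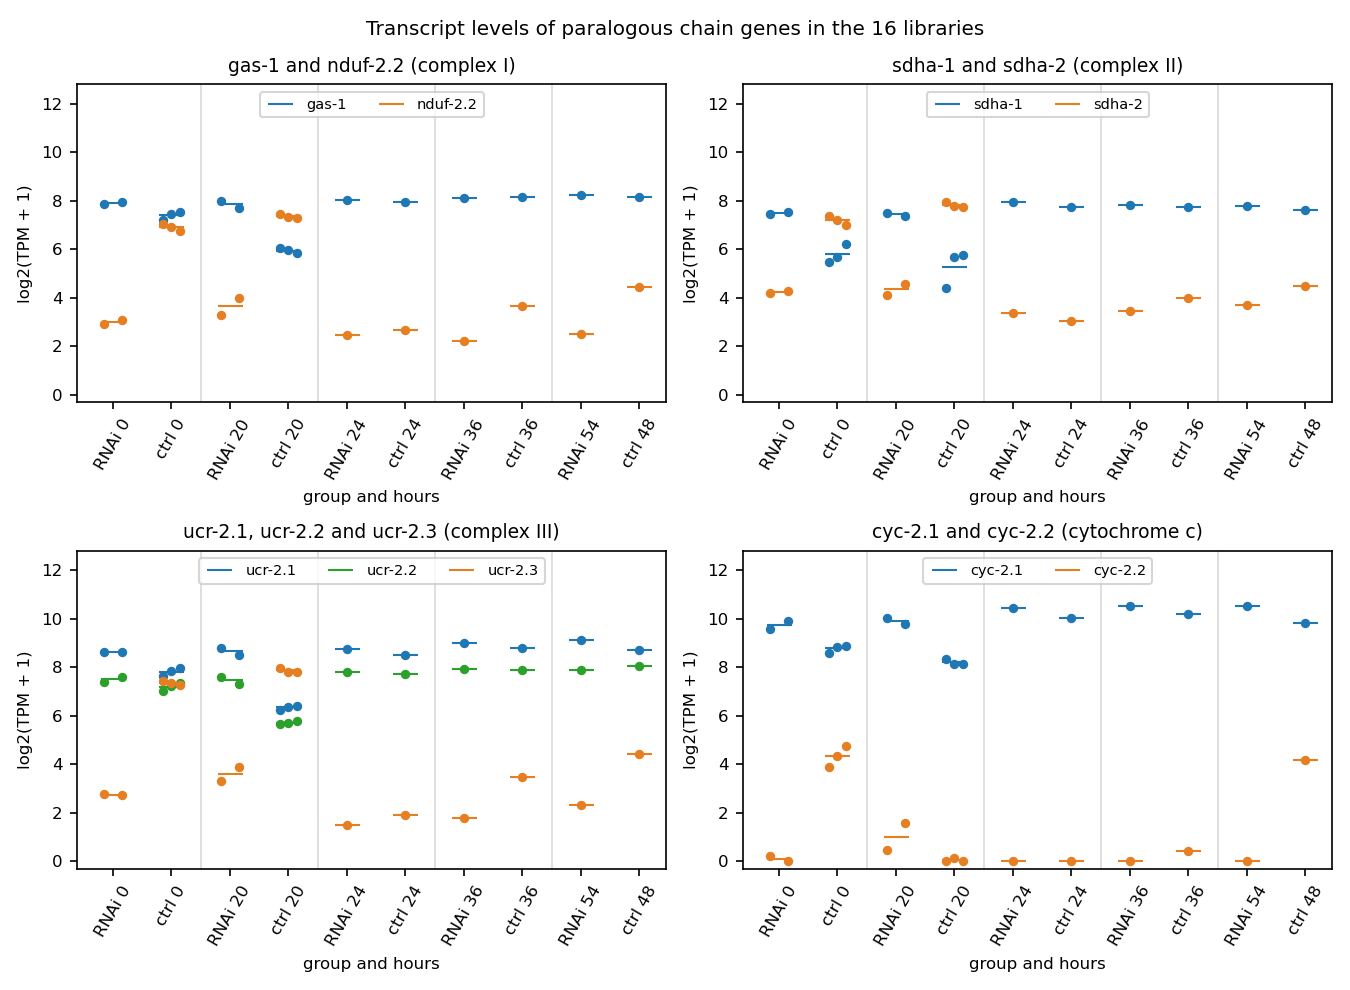
Level of each paralog as log2(TPM + 1) in the 16 libraries, with 1 panel per set, 1 point per library and a bar at the mean of each group. The genes nduf-2.2, sdha-2 and ucr-2.3 are high in controls of 0 hr and 20 hr and low elsewhere, gas-1, sdha-1, ucr-2.1 and ucr-2.2 have their lowest group mean in controls of 20 hr, and cyc-2.2 is present above 2 TPM in controls of 0 hr and 48 hr.

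Markers of the germline moved with these paralogs. All 18 of 18 germline markers, among them gld-1, glp-1 and pgl-1, were lower after atp-2 RNAi at both times. Of all tested genes 39.6% were lower at 0 hr and 40.7% at 20 hr. The germline markers had medians of -4.80 at 0 hr and -4.29 at 20 hr. Their summed level was 118.6 to 119.8 TPM in atp-2 RNAi worms and 3560 to 4507 TPM in controls at 0 hr, and 165.7 to 292.0 and 5802 to 7644 TPM at 20 hr, and no germline marker was listed at 0 at these times. Later, nos-2 was listed at 0 in both libraries of 24 hr and in the atp-2 RNAi library of 36 hr. In single libraries the sum was low in both groups, with 78.1 TPM in the atp-2 RNAi library and 77.04 TPM in the control at 24 hr, 50.8 and 153.9 TPM at 36 hr, and 79.1 TPM after atp-2 RNAi at 54 hr against 380.2 TPM in the control of 48 hr. At 24 hr 3 of 9 germline markers that passed the filter lay above the control, as did 7890 of 12548 genes. The marker mex-3 held 52.4 and 39.3 TPM of the sums at 24 hr, 28.5 and 17.2 TPM at 36 hr, and 33.5 and 20.3 TPM in the last pair. In the 6 single libraries nduf-2.2 lay between 3.65 and 20.7 TPM, sdha-2 between 7.18 and 21.6 TPM, and ucr-2.3 between 1.85 and 20.6 TPM, and for each the highest of the 6 was the control of 48 hr. Sperm markers summed to 2.61 to 4.05 TPM in atp-2 RNAi worms and 454.9 to 1103 TPM in controls at 0 hr, and 11 of 11 tested ones were lower, and neither atp-2 RNAi library held msp-45 above 0. At 20 hr they summed to 8.27 to 23.6 TPM in atp-2 RNAi worms and 2.17 to 4.70 TPM in controls, of which 3 to 5 of 12 markers were listed at 0, and the control of 48 hr held 445.5 TPM against 6.90 TPM after atp-2 RNAi at 54 hr. The libraries with a high sum of sperm markers were thus the 4 in which cyc-2.2 was above 2 TPM. The part of the germline in these results was not tested, and in whole worms fewer cells of a type and less RNA per cell cannot be told apart.

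**Figure D3:**
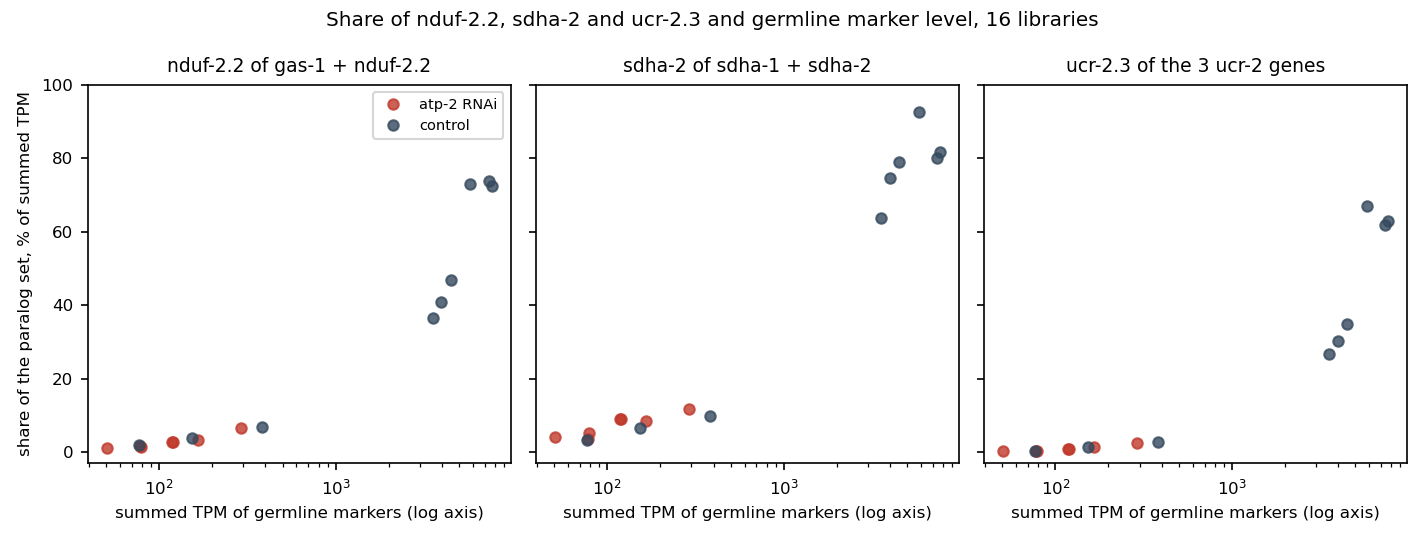
Share of nduf-2.2, sdha-2 and ucr-2.3 in the summed TPM of their paralog sets (vertical axis, percent) against the summed TPM of 18 germline markers (horizontal log axis), with 1 point per library for 7 atp-2 RNAi and 9 control libraries. The 6 controls of 0 hr and 20 hr stand at 3560 TPM or more with high shares, and the other 10 libraries stand at 380.2 TPM or less with low shares.

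Of the paralogous members that were higher, all but cyc-2.1 lie on the X chromosome. It holds 4 of the 35 members, gas-1, sdha-1, ucr-2.1 and ucr-2.2, and the other members lie on chromosomes I (12), II (4), III (8), IV (5) and V (2). At 0 hr 3 of these 4 were higher and at 20 hr 4 of 4. Over all tested genes of the X chromosome, 63.0% of 2026 were higher and 18.0% lower at 0 hr, and 67.0% of 1914 were higher and 18.3% lower at 20 hr. Among autosomal genes 40.4% of 12040 were higher and 43.3% lower at 0 hr, and 44.2% of 10976 were higher and 44.7% lower at 20 hr. The X-linked members thus went the way of the majority of tested X-linked genes.

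In complex I, nuo-3, nuo-5 and nduf-5 were higher at 0 hr beside gas-1, and the median over the 12 members was 0.14. Thus 4 of 12 passed upward and 1 downward (33.3% and 8.33%, against 43.7% and 39.6% of all tested genes). The largest of these increases was that of nuo-5 (chromosome V, 2698972 to 2707024, plus strand), whose human homolog is the large iron-sulfur subunit of the NADH-oxidising arm. At 0 hr it had 190.3 and 199.5 TPM in atp-2 RNAi worms, against 95.8, 89.8 and 124 TPM in controls (0.92 ± 0.16, adjusted p = 0.000891 by limma). At 20 hr it had 183 and 179.5 TPM in atp-2 RNAi worms, against 60.1, 136 and 155 TPM in controls. No control reached the atp-2 RNAi libraries, but the spread of the controls left the change of 0.74 ± 0.37 short of the threshold (adjusted p = 0.0924), and it passed without control replicate 1 (0.32, adjusted p = 0.0408) or 3 (0.996, adjusted p = 0.0364). For nduf-5 (chromosome I, 3001360 to 3002847, minus strand), annotated as an iron-sulfur protein, 333 and 411 TPM in atp-2 RNAi worms stood against 245, 237 and 273 TPM in controls at 0 hr, and 357 and 328 TPM against 235.4, 192 and 186 TPM at 20 hr. Both changes of nduf-5 passed (0.56 ± 0.14 and 0.75 ± 0.14, adjusted p = 0.00562 and 0.00146), that of 0 hr not without atp-2 RNAi replicate 3 (adjusted p = 0.0502). For nuo-3 the changes were 0.56 ± 0.12 and 0.55 ± 0.14 (adjusted p = 0.00243 and 0.00794), but 72.6% of its exon bases are shared with another protein-coding gene on the same strand, so its value may hold reads of both.

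At 20 hr nuo-2, nuo-6 and nduf-6 were also higher, so that 6 of 12 members of complex I passed upward, with a median of 0.52. These 6 are 50% of the tested members of the complex, against 47.7% of all tested genes. Of genes with a mean of 5 TPM or more, 3925 of 9874 were higher. For nuo-2, the homolog of a human core subunit, 247 and 199 TPM in atp-2 RNAi worms stood against 134, 135 and 136 TPM in controls at 20 hr (0.71 ± 0.13, adjusted p = 0.00139 by limma). For nuo-6, 280.0 and 233 TPM stood against 188, 177 and 178 TPM (0.49 ± 0.13, adjusted p = 0.00735), which missed the threshold after the shift to the same median (adjusted p = 0.0592), as did nuo-3 (adjusted p = 0.057). For nduf-6, an iron-sulfur protein by its annotation, 244 and 207 TPM stood against 126, 123 and 110.0 TPM (0.90 ± 0.13, adjusted p = 0.000357). These 3 genes had changes of 0.24, -0.01 and 0.23 at 0 hr that did not pass, and for each of them the difference between both times passed (adjusted p = 0.0368, 0.0242 and 0.0119). All 3 of these differences were lost after the shift to the same median (adjusted p = 0.318, 0.236 and 0.0927). That of nduf-6 held without any single library. Those of nuo-2 and nuo-6 were lost without replicate 2 of the controls of either time, replicate 2 or 3 of the atp-2 RNAi worms of 0 hr, or replicate 2 of those of 20 hr. That of nuo-2 was also lost without replicate 3 of the 0 hr controls or replicate 1 or 3 of the 20 hr controls. The members nuo-1, which binds the flavin that receives electrons from NADH, nuo-4, nduf-7 and lpd-5 passed at neither time, with changes between -0.04 and 0.04 at 0 hr and between 0.10 and 0.30 at 20 hr. Their groups were close: nuo-1 had 354 and 422 TPM in atp-2 RNAi worms at 0 hr, against 376, 401 and 389 TPM in controls. Under its sequence name Y53G8AL.2, nduf-9 had 214 and 263 TPM in atp-2 RNAi worms at 0 hr, against 234, 242 and 247 TPM in controls, and 222 and 206 TPM at 20 hr, against 200.5, 180.1 and 165 TPM. Under its sequence name B0491.5, nduf-11 had 233 and 272 TPM in atp-2 RNAi worms at 0 hr, against 273, 298 and 281 TPM in controls, and 269 and 211 TPM at 20 hr, against 234, 237 and 234 TPM.

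In complex II, mev-1 (chromosome III, 10334267 to 10335171, plus strand), which encodes the cytochrome b560 subunit that anchors the complex in the membrane, was higher at both times. It had 295 and 308 TPM in atp-2 RNAi worms at 0 hr, against 198, 208 and 204 TPM in controls, and 303 and 267 TPM at 20 hr, against 169, 172 and 176 TPM. The groups did not overlap, and the changes were 0.56 ± 0.11 and 0.72 ± 0.12 (adjusted p = 0.00155 and 0.000636 by limma). The iron-sulfur subunit gene sdhb-1 and the second membrane anchor sdhd-1 passed at 20 hr only, by 0.42 ± 0.13 and 0.43 ± 0.14 (adjusted p = 0.0161 and 0.0208). Both calls were lost after the shift to the same median (adjusted p = 0.113 and 0.135), and also without control replicate 2 or 3 or atp-2 RNAi replicate 2 (adjusted p = 0.0653 to 0.0681 for sdhb-1 and 0.0555 to 0.088 for sdhd-1). No difference between the 2 times passed for any member of complex II.

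In complex III, the Rieske iron-sulfur protein gene isp-1 (chromosome IV, 8133789 to 8136055, minus strand) had 537 and 612 TPM in atp-2 RNAi worms at 0 hr, against 427, 458 and 467 TPM in controls. Its 20 hr levels were 601 and 481 TPM in atp-2 RNAi worms, against 339, 311 and 283 TPM in controls. The changes were 0.35 ± 0.12 and 0.79 ± 0.15 (adjusted p = 0.0247 and 0.00121 by limma), and the call of 0 hr was lost after the shift to the same median (adjusted p = 0.215) and without control replicate 1 or 2 or atp-2 RNAi replicate 3 (adjusted p = 0.0768 to 0.129). For ucr-11, a small subunit, the groups overlapped at 0 hr, with 193 and 139 TPM in atp-2 RNAi worms and 145, 167 and 140.0 TPM in controls. At 20 hr ucr-11 had 219 and 161 TPM in atp-2 RNAi worms, against 89.2, 96.8 and 91.5 TPM in controls, a change of 1.01 ± 0.16 (adjusted p = 0.000462) that was larger than at 0 hr (difference 0.88, adjusted p = 0.0159), a call lost after the shift to the same median (adjusted p = 0.065) and without atp-2 RNAi 0 hr replicate 3 or atp-2 RNAi 20 hr replicate 2. The core protein gene ucr-1 and the cytochrome c1 gene cyc-1 changed by 0.07 and 0.03 at 0 hr, which did not pass, and by 0.33 ± 0.12 and 0.42 ± 0.13 at 20 hr (adjusted p = 0.0305 and 0.0154). Both calls of 20 hr were lost after the shift to the same median (adjusted p = 0.23 and 0.13) and without control replicate 2 or 3 or atp-2 RNAi replicate 2 (adjusted p = 0.0937 to 0.114 for ucr-1 and 0.0627 to 0.0691 for cyc-1).

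At 20 hr 4 of 5 members of complex II (80%, median 0.43) and 6 of 7 of complex III (85.7%, median 0.79) were higher. The other member of each, sdha-2 and ucr-2.3, was lower. The 7 subunits of complex IV, the enzyme that reduces oxygen, also moved mostly upward at 20 hr. All 7 were higher then, where 47.7% of all tested genes were, by 0.52 to 1.26 with a median of 0.66. These changes lie 0.21 to 0.96 above the median of all tested genes. By the authors' own q-values only cox-4, cox-6C and cox-7C of the 7 pass at 20 hr. At 0 hr their changes were 0.04 to 0.32, and 1 of 7, cox-4, passed (0.32 ± 0.12, adjusted p = 0.0422 by limma), a call that was lost after the shift to the same median (adjusted p = 0.275) and without control replicate 1 or 2 or atp-2 RNAi replicate 2 or 3 (adjusted p = 0.0691 to 0.171). For 6 of 7, all but cox-5B, the change at 20 hr was more positive than at 0 hr by the test of the difference, as it was for 21.1% of all tested genes. After the shift to the same median this held for cox-6C (adjusted p = 0.0274) and was lost for the other 5 (adjusted p = 0.0566 to 0.382). The calls of cox-6C and cox-7C held without any single library. Those of cox-4, cox-5A, cox-6A and cox-6B were lost without control 0 hr replicate 2, atp-2 RNAi 0 hr replicate 2 or 3, or atp-2 RNAi 20 hr replicate 2. That of cox-5A was also lost without control 20 hr replicate 3. That of cox-4 was also lost without control 0 hr replicate 3 or control 20 hr replicate 1 or 2. For cox-6A, control 0 hr replicate 3 and each control of 20 hr had the same effect, and for cox-6B each control of either time. The largest change at 20 hr was that of cox-6C (chromosome IV, 126731 to 127640, plus strand), with 439 and 315 TPM in atp-2 RNAi worms at 20 hr, against 147, 159 and 157 TPM in controls. Its change was 1.26 ± 0.16 (adjusted p = 0.000144), while at 0 hr it had 370.0 and 305 TPM in atp-2 RNAi worms, against 268, 301 and 275 TPM in controls (0.26 ± 0.13, adjusted p = 0.102, and 0.40 with adjusted p = 0.0468 without atp-2 RNAi replicate 3). For cox-7C, 591 and 459 TPM in atp-2 RNAi worms stood against 265, 288 and 270.4 TPM in controls at 20 hr (0.92 ± 0.14, adjusted p = 0.000417). The smallest change was that of cox-6B, with 527 and 439.6 TPM in atp-2 RNAi worms, against 335, 343 and 327 TPM in controls (0.52 ± 0.13, adjusted p = 0.0049), which missed the threshold after the shift to the same median (adjusted p = 0.052). Summed over the 7 genes, complex IV took 3173 to 3968 TPM in atp-2 RNAi worms and 2105 to 2168 TPM in controls at 20 hr, and 3367 to 3488 and 2913 to 3183 TPM at 0 hr. The atp-2 RNAi sums of both times overlapped, while the 20 hr controls lay below the 0 hr controls.

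Both assembly genes of complex IV are expressed at lower levels than the subunits. The gene cox-10 (chromosome II, 12679954 to 12686713, plus strand) encodes, by its annotation, the farnesyltransferase of heme synthesis for this complex. It had 50.99 and 48.5 TPM in atp-2 RNAi worms at 0 hr, against 21.98, 23.5 and 24.03 TPM in controls, and 59.6 and 48.03 TPM at 20 hr, against 22.1, 18.9 and 20.01 TPM. The groups stood apart at both times, with changes of 1.07 ± 0.13 and 1.35 ± 0.16 (adjusted p = 0.000148 and 9.16e-05 by limma). For cox-11 (chromosome IV, 13244324 to 13247160, plus strand), whose yeast homolog delivers copper to the complex, the values went the other way, with 43.5 TPM in both atp-2 RNAi libraries at 0 hr, against 60.1, 51.3 and 48.7 TPM in controls. This change of -0.28 ± 0.14 did not pass (adjusted p = 0.0911), but it did without control replicate 3 (-0.35, adjusted p = 0.0386). At 20 hr cox-11 had 40.1 and 39.7 TPM in atp-2 RNAi worms, against 85.8, 77.2 and 71.2 TPM in controls, a change of -0.95 ± 0.14 (adjusted p = 0.000293) that became -0.12 after quantile normalization (adjusted p = 0.339).

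Over all 35 members, 15 had a more positive change at 20 hr than at 0 hr and 1, cox-11, a more negative one, by the test of the difference. Among 13679 tested genes 21.1% had a more positive and 21.9% a more negative change, 43.0% in all, and after the shift to the same median 5 members were more positive and 2 more negative. When single libraries were left out, between 8 and 18 members were more positive and between 0 and 2 more negative. The count of 0 stood without atp-2 RNAi 0 hr replicate 2 or 3. The count of 2 stood without control 0 hr replicate 1, control 20 hr replicate 1 or atp-2 RNAi 20 hr replicate 3, and the 8 without control 0 hr replicate 2, atp-2 RNAi 0 hr replicate 2 or 3, or atp-2 RNAi 20 hr replicate 2. The 15 include cyc-2.2, whose controls held it at 0 hr and hardly at 20 hr. Differences were largest among the rest for ucr-2.1 (1.504 ± 0.19), ucr-2.2 (1.45 ± 0.19) and gas-1 (1.40 ± 0.19), with adjusted p = 0.00031, 0.000478 and 0.000546 by limma. In each of these the atp-2 RNAi levels of 0 hr and 20 hr overlapped, and the controls of 20 hr lay below all controls of 0 hr. The times stand in tables of their own, and how TPM was made is not stated, so levels set across the 2 times hold only as far as TPM are comparable. For nduf-2.2, sdha-2 and ucr-2.3 the difference between the times did not pass (0.19 ± 0.26, -0.53 ± 0.21 and 0.32 ± 0.23, adjusted p = 0.572, 0.0647 and 0.279). Body wall muscle markers moved with the same contrast, since 7 of 12 were higher at 0 hr and 12 of 12 at 20 hr. Their summed levels were 8428 to 11430 TPM in atp-2 RNAi worms and 5172 to 9064 TPM in controls at 0 hr, and 7768 to 8766 and 1155 to 1448 TPM at 20 hr. Their part in the chain genes was not tested. Of the other tissue markers, 10 of 10 for neurons, 4 of 8 for the intestine and 4 of 6 for pharyngeal muscle were higher at 0 hr, where 43.7% of all genes were, and 9, 6 and 4 of them at 20 hr, where 47.7% of all genes were. Lower were the intestine marker pept-1 at 0 hr (-1.30) and the pharyngeal marker tni-4 at both times (-1.49 and -0.54). At 20 hr the neuron markers summed to 797.4 to 812.6 TPM in atp-2 RNAi worms and 284.2 to 318.3 TPM in controls, and the intestine markers to 9710 to 10390 and 2373 to 3646 TPM.

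**Figure D4:**
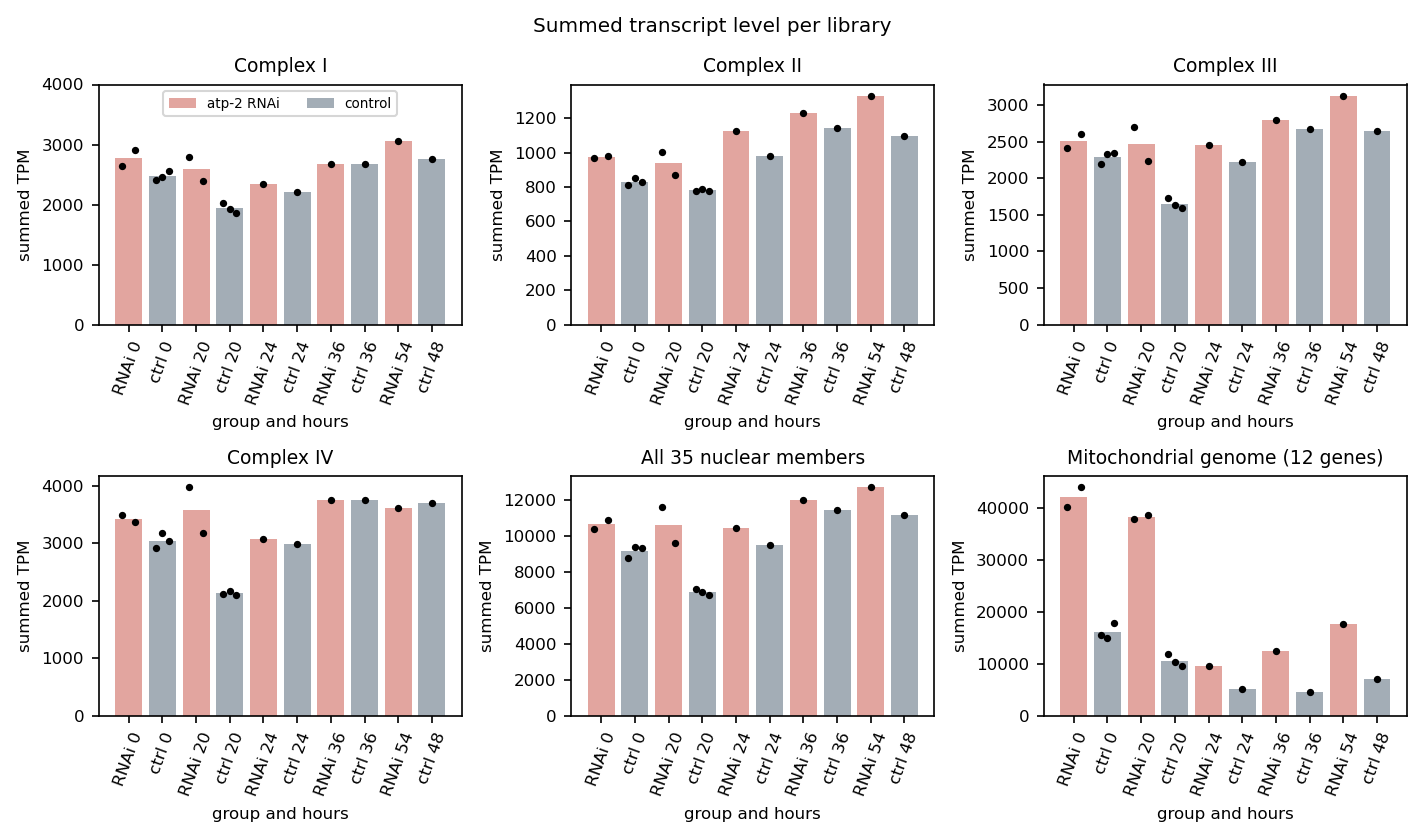
Summed TPM of the members of each complex, of all 35 members and of the 12 protein genes of the mitochondrial genome, with bars at the group mean, points for single libraries and a vertical axis from 0. Complex IV sums to 3173 to 3968 TPM in atp-2 RNAi worms and 2105 to 2168 TPM in controls at 20 hr, and the groups differ less at other times, while the mitochondrial genome is higher after atp-2 RNAi at every time.

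The summed level of all 35 members was 10380 to 10920 TPM in atp-2 RNAi worms and 8801 to 9382 TPM in controls at 0 hr, and 9644 to 11600 and 6703 to 7081 TPM at 20 hr. The genes of the mitochondrial genome, which encode further subunits of complexes I, III and IV and of the ATP synthase, differed more. All 12 of 12 were higher at both times, where 43.7% and 47.7% of all tested genes were. The 12 had medians of 1.495 at 0 hr and 2.17 at 20 hr, led by ndfl-4 (4.03 and 4.93) and nduo-6 (2.31 and 3.53), both complex I subunits. Their sum was 40080 to 43870 TPM in atp-2 RNAi worms and 15050 to 17900 TPM in controls at 0 hr, and 37840 to 38510 and 9636 to 11970 TPM at 20 hr. It stood at 9694 TPM in the atp-2 RNAi library and 5200 TPM in the control at 24 hr, at 12510 and 4576 TPM at 36 hr, and at 17600 TPM after atp-2 RNAi at 54 hr against 7144 TPM in the control of 48 hr.

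Other nuclear genes around the chain were taken from written lists. Their counts stand beside all tested genes, of which 43.7% were higher and 39.6% lower at 0 hr, and 47.7% and 40.7% at 20 hr. Of 8 genes for the synthesis of ubiquinone, 5 were higher at 0 hr and the other 3 did not pass (median 0.38), led by clk-1 (1.07 ± 0.13, adjusted p = 0.000139) and coq-1 (1.01 ± 0.12, adjusted p = 0.000135 by limma). At 20 hr 2 were higher, coq-1 (1.53 ± 0.18) and clk-1 (0.71 ± 0.15), and 1 was lower, coq-5 (-0.52 ± 0.13). Of 14 other assembly and partner genes 3 were higher and 3 lower at 0 hr, with nuaf-1 (0.72) and nuaf-3 (0.57) at one end and dhod-1 (-0.77), the dihydroorotate dehydrogenase that feeds electrons to ubiquinone, and bcs-1 (-0.65), whose yeast homolog inserts the Rieske protein into complex III, at the other. At 20 hr 4 of 14 were lower and the other 10 did not pass, and the lower ones were led by dhod-1 (-1.54 ± 0.15) and gpdh-2 (-1.09 ± 0.15), a glycerol-3-phosphate dehydrogenase of the cytosol. The 23 chain genes known by a sequence name include nduf-9 as Y53G8AL.2. Of these 23, 4 were higher and 4 lower at 0 hr (17.4% each). At 20 hr 12 of the 23 were higher and 2 lower (52.2% and 8.7%). Among them R07E4.3 was higher by 0.94 and 2.31 at the 2 times and Y56A3A.19 lower, at -0.70 and -0.53. At 0 hr F59C6.5 (0.42) and F31D4.9 (-0.50) came next, and at 20 hr T27E9.2 (0.79) and F45H10.2 (-0.38). Of the 9 nuclear ATP synthase genes other than atp-2, 3 were higher and 3 lower at 0 hr (33.3% each). At 20 hr 6 of the 9 were higher and 2 lower (66.7% and 22.2%). At 0 hr atp-1 (1.23), asb-2 (0.80), asb-1 (-3.35) and asg-1 (-1.78) changed most. At 20 hr asb-2 and asg-2 were higher, by 2.39 and 2.42, while their paralogs asb-1 and asg-1 stood at -3.63 and -1.64.

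The single libraries of 24 hr, 36 hr and of 54 hr with 48 hr have no replicates, so their ratios were not tested and were counted past 2-fold. At 24 hr 0 of 34 members were past 2-fold in either direction, where 6.41% of 12548 genes were higher and 4.10% lower. At 36 hr 0 were higher and 2 lower, ucr-2.3 (log2 ratio -1.68, 2.5 TPM in the atp-2 RNAi library and 10.2 TPM in the control) and nduf-2.2 (-1.46, 3.65 and 11.8 TPM), where 7.57% of 12416 genes were higher and 5.56% lower, 13.1% in all. At 54 hr with 48 hr 0 of 35 were higher and 3 lower, cyc-2.2, ucr-2.3 (-2.13, 3.94 TPM in the atp-2 RNAi library and 20.6 TPM in the control) and nduf-2.2 (-1.92, 4.71 and 20.7 TPM), where 17.8% of 13473 genes were higher and 14.9% lower, 32.7% in all. The last pair differs in hours as well as in treatment, and these cannot be told apart.

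Most members differed little in these pairs. The median log2 ratio was 0.10, 0.02 and 0.11 in the pairs of 24 hr, 36 hr and 54 hr with 48 hr, against 0.13, 0.15 and 0.17 over all genes. Ratios above 0 were held by 26 of 34, 21 of 34 and 23 of 35 members in the 3 pairs. Over all genes they were held by 7890 of 12548, 7712 of 12416 and 7935 of 13473, so most genes leaned the same way. Of 34 members with a value in all 3 pairs, 17 were above 0 in each pair and 4, cox-6C, nduf-2.2, ucr-11 and ucr-2.3, below 0 in each. The share of all genes above or below 0 in each of the 3 pairs was not counted. The gene cyc-2.1 had 1405 TPM in the atp-2 RNAi library and 1054 TPM in the control at 24 hr, 1471 and 1179 TPM at 36 hr, and in the last pair 1477 TPM after atp-2 RNAi (54 hr) and 917 TPM in the control (48 hr), so that it stayed above the control in each pair (log2 ratios 0.41, 0.32 and 0.69). For cox-10 the values were 44.9 TPM in the atp-2 RNAi library and 34.9 TPM in the control at 24 hr, 53.6 and 43.3 TPM at 36 hr, and in the last pair 56.9 TPM after atp-2 RNAi (54 hr) and 33.1 TPM in the control (48 hr), also above the control each time. The X-linked gas-1 had 261 TPM in the atp-2 RNAi library and 247 TPM in the control at 24 hr, 274 and 281 TPM at 36 hr, and in the last pair 304 TPM after atp-2 RNAi (54 hr) and 284 TPM in the control (48 hr), with neither group higher throughout.

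**Figure D5:**
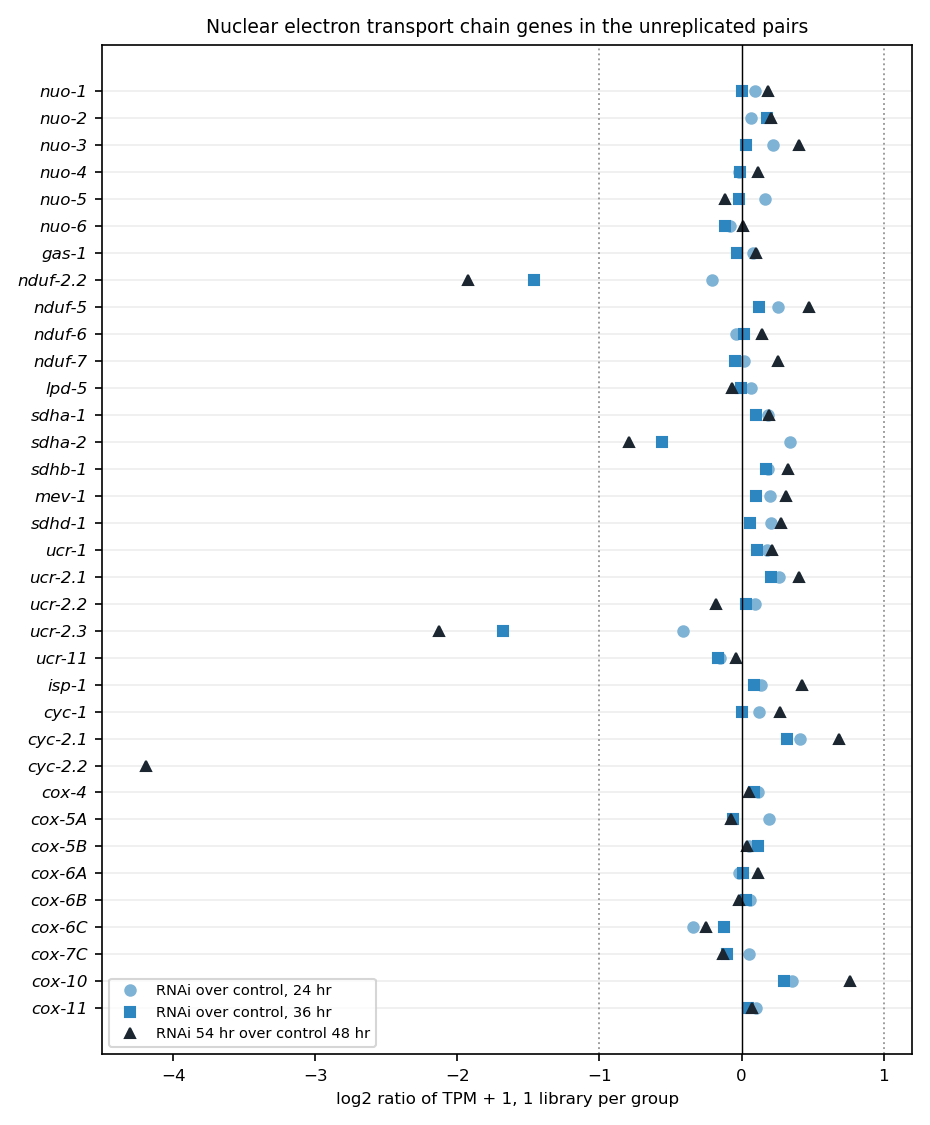
Log2 ratio of TPM + 1 in atp-2 RNAi over control for each member in the unreplicated pairs of 24 hr, 36 hr and 54 hr with 48 hr, with dotted lines at 2-fold. Members past 2-fold are nduf-2.2 and ucr-2.3 at 36 hr and in the last pair and cyc-2.2 in the last pair, all lower after atp-2 RNAi.

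Set against the single controls of 24 hr, 36 hr and 48 hr, the mean levels of atp-2 RNAi worms lay on either side of their range or within it. All 4 members that were lower at 0 hr lay within the range of these 3 controls. For cyc-2.2 that range was 0 to 17.3 TPM, so its mean could not lie below it. How often other lower genes lie within such a range was not counted. Of the 11 that were higher at 0 hr, 4 lay above the range (nuo-3, nduf-5, isp-1 and cox-10), 2 within it and 5 below it (nuo-5, gas-1, sdha-1, cyc-2.1 and cox-4). Of the 25 that were higher at 20 hr, 9 lay above, 11 within and 5 below. These controls are single libraries of another hour and another table, and stage and treatment cannot be told apart in such a comparison. For cox-10 the atp-2 RNAi means of 49.8 TPM at 0 hr and 53.8 TPM at 20 hr lay above the range of 33.1 to 43.3 TPM, and for nduf-5 the means of 372.1 and 342.1 TPM lay above 187.2 to 258.0 TPM.

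Across the 16 libraries members differed widely in level and in spread. By median level cyc-2.1 came first (898.5 TPM), then cox-5A (697.1 TPM) and cyc-1 (594.8 TPM), and the lowest were sdha-2, nduf-2.2, ucr-2.3 and cyc-2.2. The steadiest was nuo-1, whose highest library held 1.45 times the lowest, and the ratio was 1.51 for lpd-5, 1.59 for nuo-4 and 1.59 for nuo-6. It was 5.44 for gas-1, 7.39 for ucr-2.1, 12.2 for sdha-1, 34.0 for sdha-2, 48.2 for nduf-2.2 and 136 for ucr-2.3.

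The authors' deposited table of 0 hr marks 9 of the 35 members as higher and 5 as lower at a q-value under 0.05, against 13.9% and 14.1% of all 46904 listed genes, expressed or not. The 9 leave out isp-1 and cox-4 (authors' q = 0.257 and 0.381), which passed by limma. The 5 include cox-11 (authors' q = 0.047), which did not. The authors' deposited table of 20 hr marks 12 and 4 members, against 15.2% and 13.1% of listed genes. Of the complex IV subunits, cox-4, cox-6C and cox-7C are among those 12 (authors' q = 0.0483, 0.000389 and 0.0192). Absent from them are cox-5A, cox-5B, cox-6A and cox-6B (authors' q = 0.474, 0.316, 0.189 and 0.623). Also absent, though higher by limma, are nuo-2, nuo-3, nuo-6, nduf-5, mev-1, sdhb-1, sdhd-1, isp-1, cyc-1 and ucr-1 (authors' q = 0.0953 to 0.89). The 12 include cyc-2.2 (authors' q = 0.0203), which was not tested by limma at 20 hr. The authors' deposited tables of 24 hr and 36 hr mark 0 members in either direction, where 0.0107% and 0.0149% of listed genes are marked as higher and 0.00213% and 0.0341% as lower. The authors' deposited table of 54 hr with 48 hr marks 0 members as higher and 1 as lower, against 0.288% and 0.951% of listed genes.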

How the data were processed

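Whole-worm RNA was isolated with GENEzol and made into libraries with a SureSelect kit that keeps strand, per the labels' protocols. The tools were bcl2fastq 2.20, TopHat and Cufflinks and the build was WBcel235, per the submitters' processing notes. For annotation, TPM program and strand setting, nothing is given in the sources used here. Files deposited by the authors hold TPM per gene and library in 5 tables, per the file headers, with 0.0001 for no signal, which was set to 0. The authors' deposited log2 ratio and q-value were used only for their own calls.

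Members, lists and tests were chosen with earlier results of these data known. Values of log2(TPM + 1) at each time were fitted by limma (version 3.58.1, R 4.3.3) with its variance trend on level. Genes averaging 1 TPM or more entered, and p-values were adjusted over all of them by Benjamini-Hochberg, with a threshold of 0.05. The difference between 20 hr and 0 hr was an interaction in a fit of 10 libraries. The fit was also run on simulated data in which few genes changed, unlike in these data, so that run does not bear on the scaling. Paralog shares were compared by an exact two-sided permutation test in scipy 1.17.1, and unreplicated pairs were counted at 2-fold. Values in each library of 0 hr and 20 hr are printed for the paralogs, the target and the 3 largest changes per direction and time, and log2 changes for the 2 largest per direction of each further gene list. Other members with printed values were chosen after these were seen. Coordinates are those of the files, and shared exons come from the Ensembl annotation. Alternatives changed the pseudocount, filter, scaling, trend and fold, added the replicate number as a block, or left out single libraries.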

Additional observations from a re-analysis of the deposited data

Results flagged for a closer look

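For 16 members the change after atp-2 RNAi differed between 20 hr and 0 hr, by the interaction in the limma fit of 10 libraries at an adjusted p under 0.05, which 43.0% of all tested genes also passed in either direction. In complex I the change at 20 hr minus that at 0 hr was 0.46 for nuo-2, 0.50 for nuo-6, 1.40 for gas-1 and 0.67 for nduf-6. In complex III it was 1.504 for ucr-2.1, 1.45 for ucr-2.2 and 0.88 for ucr-11. For the cytochrome c genes it was 0.71 for cyc-2.1 and 5.20 for cyc-2.2. In complex IV it was 0.54 for cox-4, 0.53 for cox-5A, 0.45 for cox-6A, 0.43 for cox-6B, 1.01 for cox-6C and 0.81 for cox-7C, and for the assembly gene cox-11 it was -0.66. After the shift to the same median 6 of the 16 still passed, gas-1, ucr-2.1, ucr-2.2, cyc-2.2, cox-6C and cox-11. The value of cyc-2.2 rests on the controls, which held it at 13.8 to 26.2 TPM at 0 hr and at 0.0895 TPM or less at 20 hr.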

How the results depend on the processing

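Over pseudocounts of 0.1 and 0.01, no filter, a filter of 5 TPM, TPM without the mitochondrial genome, quantile normalization, a shift to the same median, no intensity trend and all 10 libraries in 1 fit, the counts of members higher or lower at 0 hr and at 20 hr stayed within 1.5 times their value, but single calls changed. At 0 hr cox-4 was lost under no filter, the shift, quantile normalization and no trend, isp-1 under the last 3 of these, and nuo-2, cox-5B or ucr-2.2 was gained under a pseudocount of 0.01, no filter, quantile normalization or TPM without the mitochondrial genome. At 20 hr quantile normalization lost ucr-1, cyc-1 and cox-11 and gained nuo-4, nduf-7 and lpd-5, no trend lost ucr-1, and the shift lost nuo-3, nuo-6, sdhb-1, sdhd-1, ucr-1, cyc-1 and cox-6B. The shift to the same median left 5 members with a more positive and 2 with a more negative change at 20 hr than at 0 hr, in place of 15 and 1, and split the calls of the difference over all genes into 2420 higher and 4207 lower, against 2886 and 2991. Quantile normalization left 0 more negative. At 1.5-fold 2 members were higher in the pair of 54 hr with 48 hr, in place of 0. Leaving out single libraries gave 8 to 18 members more positive and 0 to 2 more negative, 8 to 12 higher and 4 to 5 lower at 0 hr, and 21 to 26 higher and 4 lower at 20 hr.

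No change of a gene that turned sign had passed the test. At 0 hr the shift to the same median gave -0.11 for nduf-7, -0.0275 for sdhb-1, -0.0728 for ucr-1, -0.0154 for ucr-11, -0.12 for cyc-1, -0.11 for cox-5A, -0.0497 for cox-6B and -0.0315 for cox-7C, with medians of -0.0086 for complex I and -0.0154 for complex III. Quantile normalization gave -0.0149 for ucr-1, -0.056 for cyc-1, -0.0735 for cox-5A and 0.0554 for cox-11. Without the mitochondrial genome nuo-1 was at 0.0327, nuo-6 at 0.0335 and lpd-5 at 0.0132. At 20 hr the shift gave -0.015 for nuo-4. Leaving out single libraries at 0 hr, the ranges were -0.13 to 0.12 for nuo-1, -0.16 to 0.0795 for nuo-4, -0.0378 to 0.0252 for nuo-6, -0.0609 to 0.14 for nduf-7, -0.15 to 0.0942 for lpd-5, -0.0343 to 0.18 for ucr-1, -0.10 to 0.36 for ucr-11, -0.0393 to 0.0932 for cyc-1, -5e-04 to 0.0835 for cox-5A and -0.0048 to 0.23 for cox-7C. At 20 hr they were -0.0361 to 0.24 for nuo-4 and -0.0255 to 0.28 for lpd-5. Where 1 atp-2 RNAi library was left, it is assumed to vary like the controls. The cause of these turns and of the moved counts was not tested.

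Whether replicates share more than a number is not given. The deviations of same-numbered samples from their group means had correlations of 0.028 and -0.045 at 0 hr and -0.072 and 0.005 at 20 hr. With 2 atp-2 RNAi libraries at each time their deviations mirror each other, so these values cannot settle it. With the replicate number as a block, 6019 genes were higher and 5523 lower at 0 hr, and 6109 and 5157 at 20 hr, the change of cox-5A at 0 hr was -5e-04, and the calls of isp-1 (adjusted p = 0.0594) and cox-4 (adjusted p = 0.103) at 0 hr were lost, while nduf-7 passed at 20 hr (adjusted p = 0.0296). Of the 16 differences between the times, 12 passed with the block. Shares of paralogs are taken within a library, so scaling could not move them and gave no value. Depth is unknown, so how far it limits low members such as cyc-2.2 cannot be given.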
